A study of Homo sapiens with 6 samples.

Results

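The proteasome is the barrel-shaped protease that degrades ubiquitin-tagged proteins in the cytosol and nucleus, including misfolded proteins brought back from the endoplasmic reticulum (ER). The genes described here are those of the count table whose identifier, with its version dropped, maps to a symbol of PSMA, PSMB, PSMC, PSMD, PSME, PSMF or PSMG followed only by digits, together with POMP. This rule found 49 of the 64299 genes of the table: 8 PSMA and 11 PSMB genes of the 20S core, 6 PSMC and 14 PSMD genes of the 19S regulatory particle, 5 PSME and PSMF genes of activators and an inhibitor, and 5 assembly factors. Of these, 47 passed the filter on low counts, and the other 2, PSMA8 of testis and PSMB11 of the thymus, had 0 reads in all 6 libraries. The most that 3 counts would amount to was 0.111 to 0.439 CPM, the library-scaled level used throughout, depending on the library.

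RNA was sequenced from HEK293T, an established human embryonic kidney line, transfected with a plasmid by means of FuGene 6. The series description writes HEK293. In 3 libraries the plasmid was labelled ERbeta and in 3 it was the empty vector, EV_Ctrl. All libraries thus share the cell line and the transfection itself. The labels do not define ERbeta; background knowledge of this work makes it a designed β-sheet protein sent into the ER rather than estrogen receptor beta, and its own level was not analysed here. The comparison asks how cells respond to that protein. Whether replicates were separate cultures is not in the labels, so the p-values rest on spread among libraries that may be only technical.

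Total counts ran from 6833442 in EV_Ctrl 1 to 27101644 in EV_Ctrl 2. They were 10806375 in EV_Ctrl 3 and 13149304 to 16531368 in ERbeta, so EV_Ctrl 1 and 3 were the shallowest libraries. Of the markers fixed for HEK293, all 4 (NEFL, NEFM, LIN28B, PAX2) were detected in each library, with a summed level of 252 to 315 CPM in ERbeta and 216 to 263 CPM in EV_Ctrl, and LIN28B was low in EV_Ctrl 1 and 3 (38.4 and 38.9 CPM, against 88.7 to 130 CPM in the other 4 libraries). Of 7 markers of fibroblasts, blood and liver, COL1A1 and COL3A1 held nearly all reads, and the sum was 16.6 to 24.1 CPM in ERbeta and 21.0 to 33.4 CPM in EV_Ctrl. CD3E was at 0 in all libraries, and PTPRC and DCN were at 0 outside EV_Ctrl 2. The controls were not alike: on the first principal component, with 60.8% of the variance, EV_Ctrl 1 and 3 lay at 44.7 and 41.5 and EV_Ctrl 2 at -13.9, next to the ERbeta libraries, which lay at -42.1 to -13.9. A smoothed trend of log2 CPM on GC content, read as its value at 40% GC minus that at 60% GC, was -0.48 and -0.41 in EV_Ctrl 1 and 3, 0.13 in EV_Ctrl 2, and 0.12, 0.04 and 0.59 in ERbeta 1, 2 and 3. Results that turn on these controls are given below with and without them.

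In the 20S core, rings of α subunits (PSMA) gate the entry of substrates and rings of β subunits (PSMB) hold the proteolytic sites, of which PSMB5 cuts after hydrophobic, PSMB7 after basic and PSMB6 after acidic residues. The 19S particle recognises ubiquitin and unfolds substrates with a ring of ATPases (PSMC) and a set of scaffold, receptor and deubiquitinase subunits (PSMD). When proteasome activity falls short, the transcription factor NFE2L1 (NRF1) raises subunit genes together through the antioxidant response element in their promoters, a response often called the bounce-back. Interferon exchanges the catalytic β subunits for PSMB8, PSMB9 and PSMB10, which form the immunoproteasome.

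Promoters are shown because joint control of subunit genes acts there. RefSeq windows on GRCh38.p14, from 250 bases before to 50 after an annotated start, were found for 43 of the 49 genes, with 52 windows in all. PSMA7, PSMB1, PSMB6, PSMB7, PSMD4 and PSMG3 had none in the table. The core of the antioxidant response element, searched as TGACNNNGC on both strands, was in 15 of the 52 windows (28.8%), against 13.3% of all 35116 windows. The CCAAT box, searched as CCAAT on both strands, was in 20 of 52 (38.5%), against 34.6% of all windows. These are letter matches in a window and no evidence of binding. The bases before the start are printed for 4 genes, with matches to either motif in capitals. PSMD12 had the smallest p of all members and PSMD14 and PSMA3 were among those lowest in EV_Ctrl 1 and 3, while PSMB3, a structural β subunit with both motifs, was nearly level across libraries.
PSMD12 (chr17:67366578-67366827, minus strand): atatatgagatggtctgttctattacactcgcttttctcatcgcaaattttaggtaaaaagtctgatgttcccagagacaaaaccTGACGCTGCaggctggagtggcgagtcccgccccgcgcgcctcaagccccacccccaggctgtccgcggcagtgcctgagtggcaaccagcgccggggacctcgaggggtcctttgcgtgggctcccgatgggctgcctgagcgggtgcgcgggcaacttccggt
PSMD14 (chr2:161308175-161308424, plus strand): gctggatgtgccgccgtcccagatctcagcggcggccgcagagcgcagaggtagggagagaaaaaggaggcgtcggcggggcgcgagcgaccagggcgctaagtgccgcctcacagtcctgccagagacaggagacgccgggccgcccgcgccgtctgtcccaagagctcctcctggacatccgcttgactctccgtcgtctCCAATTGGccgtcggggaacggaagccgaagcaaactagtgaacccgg
PSMA3 (chr14:58244593-58244842, plus strand): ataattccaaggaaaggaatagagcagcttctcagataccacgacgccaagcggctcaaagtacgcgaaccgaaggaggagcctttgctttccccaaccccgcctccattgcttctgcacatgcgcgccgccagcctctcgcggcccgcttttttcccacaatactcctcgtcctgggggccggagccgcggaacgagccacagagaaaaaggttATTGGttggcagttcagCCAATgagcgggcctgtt
PSMB3 (chr17:38752491-38752740, plus strand): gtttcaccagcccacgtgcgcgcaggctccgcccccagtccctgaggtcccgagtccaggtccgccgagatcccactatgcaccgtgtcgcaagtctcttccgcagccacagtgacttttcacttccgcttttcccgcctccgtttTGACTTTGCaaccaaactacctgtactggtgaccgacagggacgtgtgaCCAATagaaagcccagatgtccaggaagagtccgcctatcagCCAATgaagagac
The capitals in PSMD12 are an antioxidant response element core that begins 165 bases before the start. In PSMB3 such a core begins 104 bases before the start, and CCAAT boxes begin 55 and 13 bases before it. PSMA3 has CCAAT boxes on opposite strands that begin 35 and 18 bases before the start. In PSMD14 the matches on the plus and minus strand overlap, beginning 48 and 45 bases before the start.

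No proteasome gene passed the test between ERbeta and EV_Ctrl. Under edgeR's quasi-likelihood test and Benjamini-Hochberg adjustment, 0 of 47 members and 0 of 16243 genes (0.0%) had an adjusted p under 0.05, and the smallest adjusted p was 0.397 for a member (PSMD12) and 0.13 for any gene. Without adjustment 2018 genes had a p under 0.05, and DESeq2 and limma-voom called 71 and 1 genes. Log2 fold changes of the members ran from -0.24 (PSMB9) to 0.54 (PSMC6) with a median of 0.07, against -0.01 over all tested genes, and standard errors were 0.09 to 0.38. They were positive for 33 of 47 members, against 48.3% of all genes. With counts scaled by library size only, the median over all genes was -0.10, that of the members -0.02, and 22 of 47 members were positive, against 36.3% of all genes.

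The members' counts were read against the same counts over all genes. At an unadjusted p under 0.05, 1 of 47 members was higher in ERbeta, against 9.54% of all genes. The 3 ERbeta levels were each above the 3 control levels for 4 of 47 members (PSMA2, PSMC3, PSMD12 and PSMG2), against 10.2% of genes, and below them for 0, against 8.48%. DESeq2 called 0.438% of the genes to which it gave an adjusted p, and 0 members. In the authors' deposited table, 3.78% of 11150 genes with an adjusted p were under 0.05, among them 1 of 44 members, PSMD12, with a log2 fold change of 0.37 and an adjusted p of 0.0425. Each of these member shares was below that over all genes. The authors' deposited table cannot come from these counts alone: it gives a mean above 0 for 8079 of the 33813 genes at 0 reads in all 6 libraries, PSMA8 and PSMB11 among them (0.0152 and 0.278).

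The 95% intervals describe this fit only, with its scaling and the spread among these libraries. For 43 of 47 members the 95% interval of the log2 fold change lay within ±1, that is, within a 2-fold change either way, and for 30 it lay within ±0.5. The exceptions to the wider bound were PSMA3, PSMC6 and POMP, each spread widely among the controls, and PSMB9, which had few reads. Other settings gave some values outside these intervals. With the GC correction described below, PSMD14 stood at -0.33, against an interval of -0.09 to 0.89. With that correction and without EV_Ctrl 2, PSMD5 stood at -0.54, against -0.48 to 0.17. Summed over all members, the level was 6744, 7239 and 7062 CPM in ERbeta 1, 2 and 3 and 6650, 7136 and 5849 CPM in EV_Ctrl 1, 2 and 3. The lowest library was EV_Ctrl 3, and EV_Ctrl 2 lay inside the ERbeta range. In bulk RNA, fewer cells of a type and less RNA per cell cannot be told apart.

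**Figure D1:**
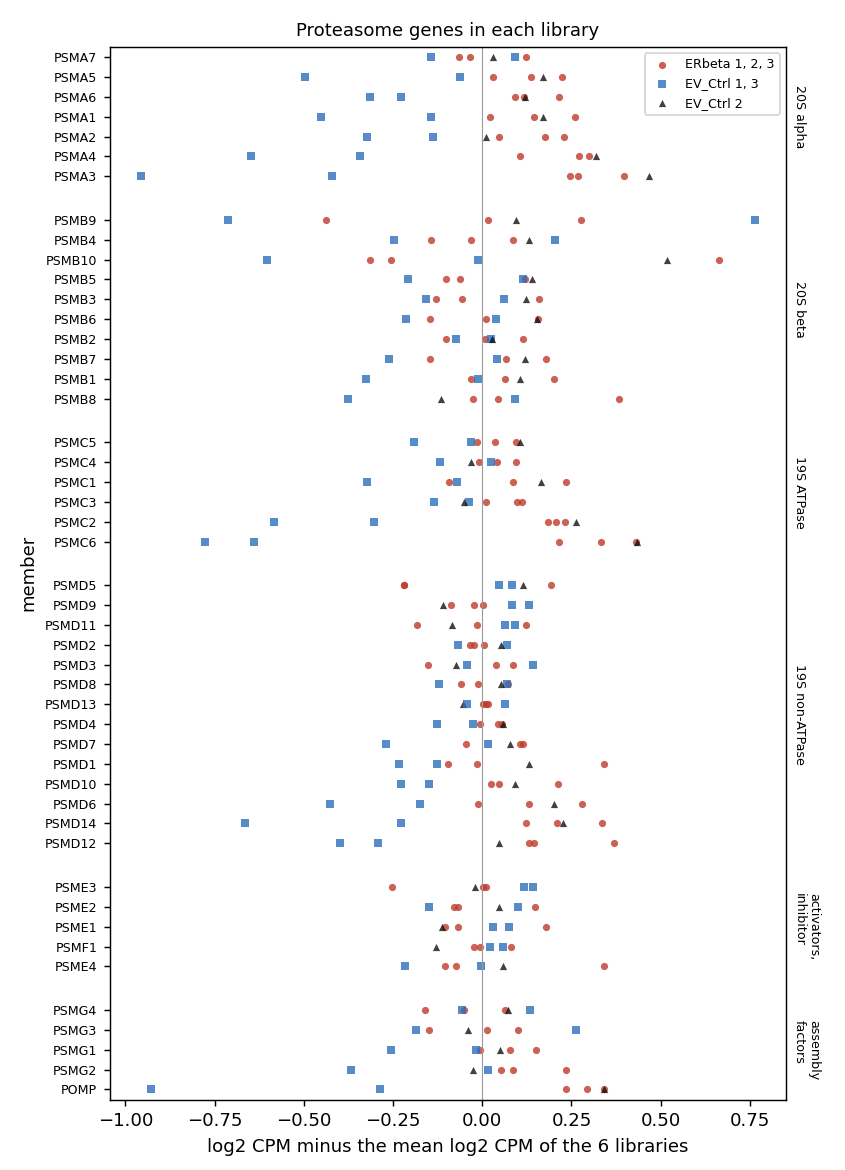
Level of each of the 47 tested proteasome genes in each library, as log2 CPM minus its mean over the 6 libraries (x axis), with genes on the y axis by class and points for libraries. EV_Ctrl 1 and 3 (squares) lie to the left of the other 4 libraries for 17 genes, among them POMP, PSMA3 and PSMC6, while EV_Ctrl 2 (triangles) lies inside the ERbeta range for 26.

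The α subunits of the 20S core had positive log2 fold changes in 7 of 7 tested cases with a median of 0.26, but in 2 of 7 without EV_Ctrl 1 and 3 (median -0.02), 3 of 7 with the GC correction and 6 of 7 with library size only. Of these 0 passed, and 1 was higher without overlap between groups, against 10.2% of all genes. PSMA3 was at 112, 124 and 114 CPM in ERbeta 1, 2 and 3 and at 70.5, 130 and 48.6 CPM in EV_Ctrl 1, 2 and 3. The highest library was EV_Ctrl 2, so the groups overlapped, and the log2 fold change of 0.48 ± 0.32 (SE) had an adjusted p of 0.518 in edgeR's test. PSMA4 had the same order, at 319, 366 and 358 CPM in ERbeta against 234, 370 and 190 CPM in EV_Ctrl (log2 fold change 0.39 ± 0.23). PSMA2 was at 18.1, 16.5 and 18.8 CPM against 14.5, 16.1 and 12.8 CPM. Here every ERbeta library was above every control, by 0.29 ± 0.13 on the log2 scale with an adjusted p of 0.401. PSMA6 was at 24.7 to 26.9 CPM in ERbeta and at 19.8, 25.2 and 18.6 CPM in EV_Ctrl, a log2 fold change of 0.26 ± 0.14. PSMA7 was the exception of the class, at 199 to 227 CPM in ERbeta and 188 to 222 CPM in EV_Ctrl with a log2 fold change of 0.01.

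The β subunits of the core were nearly level. Of 10 tested PSMB genes 5 were positive and 5 negative with a median of -0.003 (2 positive with library size only, 1 without EV_Ctrl 1 and 3), and for the 7 β subunits outside the immunoproteasome the 95% interval lay within ±0.5 in each case. PSMB5, the chymotrypsin-like site, was at 123, 143 and 126 CPM in ERbeta and 143, 145 and 114 CPM in EV_Ctrl, a log2 fold change of -0.04 ± 0.13. PSMB6, the caspase-like site, was at 146, 161 and 131 against 149, 161 and 125 CPM (0.01 ± 0.13). PSMB7, the trypsin-like site, was at 156, 195 and 180 against 177, 187 and 144 CPM (0.06 ± 0.14). For all 3 the groups overlapped, with adjusted p-values of 0.851 to 0.978 in edgeR's test. PSMB1, a structural β subunit, had the smallest p of the class, at 272 to 320 CPM in ERbeta and 222 to 299 CPM in EV_Ctrl (0.15 ± 0.13, adjusted p 0.627). The difference between α and β subunits was not tested. The median GC content of their longest transcripts was 40.7% for α and 50.9% for β, and with the GC correction described below the medians were -0.004 and 0.04.

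Immunoproteasome subunits were at 2.70 CPM or less in every library. PSMB8 was at 0.926, 1.17 and 0.882 CPM in ERbeta and 0.693, 0.829 and 0.958 CPM in EV_Ctrl, which is 5 to 22 reads a library. PSMB9 was at 1.17 to 1.93 CPM against 0.97 to 2.70 CPM, and PSMB10 at 0.847 to 1.67 against 0.693 to 1.51 CPM. The groups overlapped for all 3, with log2 fold changes of 0.25 ± 0.27, -0.24 ± 0.35 and -0.06 ± 0.38. Per kb of the longest transcript, PSMB5 lay 218-fold to 378-fold above PSMB8 within a library, PSMB6 142-fold to 471-fold above PSMB9 and PSMB7 116-fold to 318-fold above PSMB10. With the length of the principal transcript, a choice made after seeing the data, the lowest of these folds were 103, 42.5 and 116. In both groups the RNA of catalytic subunits was almost only that of the constitutive form.

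Genes that interferon raises with the immunoproteasome were measured beside them, from a list of 21. TAP1, the peptide transporter whose gene neighbours PSMB9, was at 73.2 to 91.8 CPM in ERbeta and 84.4 to 89.8 CPM in EV_Ctrl. The class II regulator CIITA had 0 reads in all libraries. Of 18 tested genes 0 passed in either direction and 7 were positive, against 48.3% of all genes, and the median was -0.07. TAP1 was thus at 73.2 CPM or more in the same libraries in which PSMB8 and PSMB9 were at 2.70 CPM or less.

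**Figure D2:**
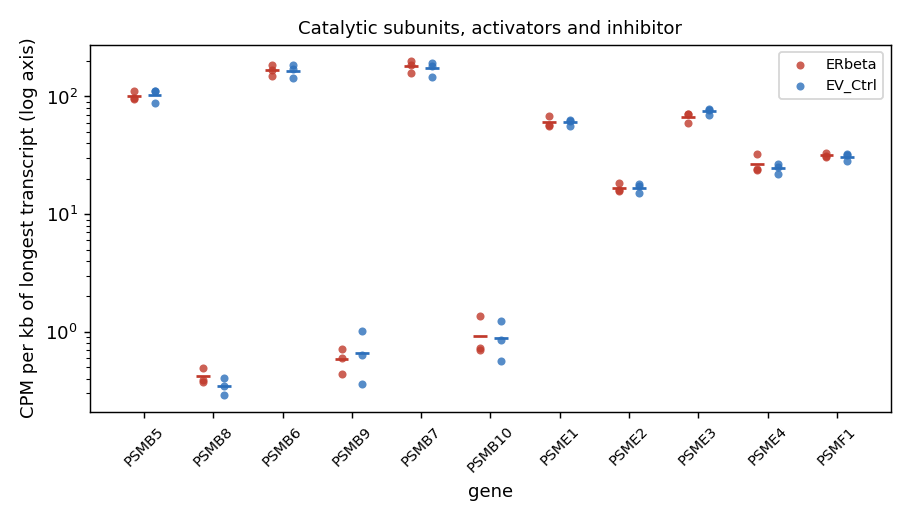
Level in CPM per kb of the longest annotated transcript (log axis) of constitutive and immunoproteasome catalytic subunits, activators and the inhibitor; points are libraries and short lines the mean of each group of 3. PSMB8, PSMB9 and PSMB10 lie 116-fold or more below PSMB5, PSMB6 and PSMB7, pair by pair, in each library, and the ERbeta and EV_Ctrl points overlap for each of the 11 genes.

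In the 19S particle, the ATPases were positive in 6 of 6 cases with a median of 0.15, but in 2 of 6 without EV_Ctrl 1 and 3 (median -0.06), 5 of 6 with the GC correction and 4 of 6 with library size only. Of the ATPases 0 passed. PSMC6 was at 79.5, 86.4 and 92.5 CPM in ERbeta and 44.1, 92.7 and 40.1 CPM in EV_Ctrl. EV_Ctrl 2 was the highest of all 6 libraries and EV_Ctrl 1 and 3 the lowest, and the log2 fold change was 0.54 ± 0.30 (adjusted p 0.46). PSMC2 had the same pattern, at 173 to 178 CPM in ERbeta and 123, 182 and 101 CPM in EV_Ctrl (0.37 ± 0.20, adjusted p 0.45). PSMC3 was the ATPase without overlap, at 194, 208 and 206 against 188, 186 and 175 CPM, a log2 fold change of 0.15 ± 0.09 with an adjusted p of 0.487 in edgeR's test. The remaining ATPases, PSMC1, PSMC4 and PSMC5, had log2 fold changes of 0.07 to 0.14.

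Among the 14 PSMD genes 8 were positive and 6 negative with a median of 0.04, and with library size only 6 were positive with a median of -0.06. PSMD12, a scaffold subunit of the 19S lid, was at 143, 142 and 167 CPM in ERbeta and 98.1, 134 and 106 CPM in EV_Ctrl. Every ERbeta library was above every control, by a log2 fold change of 0.42 ± 0.14 with a 95% interval of 0.09 to 0.75, an unadjusted p of 0.0194 and an adjusted p of 0.397 in edgeR's test. PSMD14, the deubiquitinase that removes the ubiquitin chain from substrates, was at 143, 152 and 166 against 112, 154 and 83.1 CPM (0.40 ± 0.21, adjusted p 0.436). PSMD11, another lid subunit, was at 229, 204 and 252 against 247, 218 and 242 CPM (-0.05 ± 0.11). PSMD14 and PSMD11 overlapped between groups, and the difference between PSMD12 and PSMD11 was not tested.

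Other scaffold and receptor subunits overlapped between groups. PSMD2, the large scaffold of the base, was at 277 to 285 CPM in ERbeta and 271 to 298 CPM in EV_Ctrl. PSMD4, a ubiquitin receptor, was at 176 to 184 against 162 to 184 CPM, and PSMD8, a lid subunit, at 467 to 512 against 447 to 511 CPM. PSMD5, PSMD9 and PSMD10 carry PSMD names but act as chaperones of 19S assembly. PSMD5 was at 37.0, 37.0 and 49.2 CPM in ERbeta and 44.5, 46.6 and 45.6 CPM in EV_Ctrl. It had the lowest log2 fold change of 19S, -0.15 ± 0.14 (adjusted p 0.636), with ERbeta 3 above and the other ERbeta libraries below all controls. PSMD9 had a mean of 15.5 ± 0.493 CPM with ERbeta against 16.4 ± 1.41 CPM in the controls (SD, n = 3), and PSMD10 at 78.8 to 89.7 against 66.1 to 82.5 CPM.

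Activators cap the core in place of 19S, and their levels overlapped between groups. PSME1 and PSME2, which form the interferon-inducible PA28 ring, were at 63.9 to 77.6 and 43.7 to 51.1 CPM in ERbeta and at 63.4 to 72.3 and 41.6 to 49.5 CPM in EV_Ctrl. Their log2 fold changes were 0.01 ± 0.12 and 0.002 ± 0.12. PSME3, the nuclear PA28γ, was at 238, 239 and 199 against 262, 234 and 258 CPM (-0.16 ± 0.11, adjusted p 0.539). PSME4, the large activator PA200, was at 172, 168 and 229 against 156, 188 and 180 CPM (0.12 ± 0.15). PSMF1, a regulator first described as an inhibitor, was at 132 to 142 against 123 to 139 CPM (0.03 ± 0.10). Of these 5 genes 0 passed, the median was 0.01 (-0.09 with library size only), and the 95% intervals of all 5 lay within ±0.5.

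Assembly factors build the core and leave it or are degraded in it. POMP, the maturation protein consumed by each new core, was at 94.4, 97.5 and 90.7 CPM in ERbeta and 63.2, 97.5 and 40.5 CPM in EV_Ctrl. EV_Ctrl 2 equalled the highest ERbeta library and the other controls were below all ERbeta libraries, and the log2 fold change of 0.48 ± 0.28 had an adjusted p of 0.468. PSMG2, which pairs with PSMG1 to order the α ring, was at 62.2, 70.5 and 63.7 CPM against 60.7, 58.9 and 46.5 CPM. Its groups did not overlap (0.24 ± 0.13, adjusted p 0.453). PSMG1 was at 99.0 to 110 against 83.2 to 103 CPM, and the smaller pair PSMG3 and PSMG4 at 37.0 to 44.0 and 26.2 to 30.6 against 36.1 to 49.2 and 28.1 to 32.1 CPM. The median of the 5 was 0.14, and 0 passed.

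The largest log2 fold changes rested on EV_Ctrl 1 and 3. For 17 of 47 members both of these libraries lay below the other 4, against 23.1% of all genes; 6 were α subunits, 3 ATPases, 6 PSMD genes and 2 assembly factors. Without EV_Ctrl 2, edgeR's test called 7 of 47 members higher, against 13.5% of all genes, and 0 lower, against 0.775%. They were POMP (log2 fold change 0.88), PSMA3 (0.98), PSMA4 (0.72), PSMC2 (0.65), PSMC6 (1.04), PSMD12 (0.57) and PSMD14 (0.67), with adjusted p-values of 0.000292 to 0.00968. Without EV_Ctrl 1 and 3 the same 7 genes were at -0.05, -0.16, -0.09, -0.05, -0.10, 0.18 and 0.003, and the median of all members was -0.03. That fit takes the spread of the ERbeta libraries for the lone control too. The fold changes of POMP, PSMA3, PSMA4, PSMC2 and PSMC6 therefore depended on which controls were used. They were 0.65 to 1.04 without EV_Ctrl 2 and -0.16 to -0.05 without EV_Ctrl 1 and 3. PSMD12 was at 0.57 and 0.18. Values this near 0 against 1 control do not settle a direction, for PSMD12 either.

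**Figure D3:**
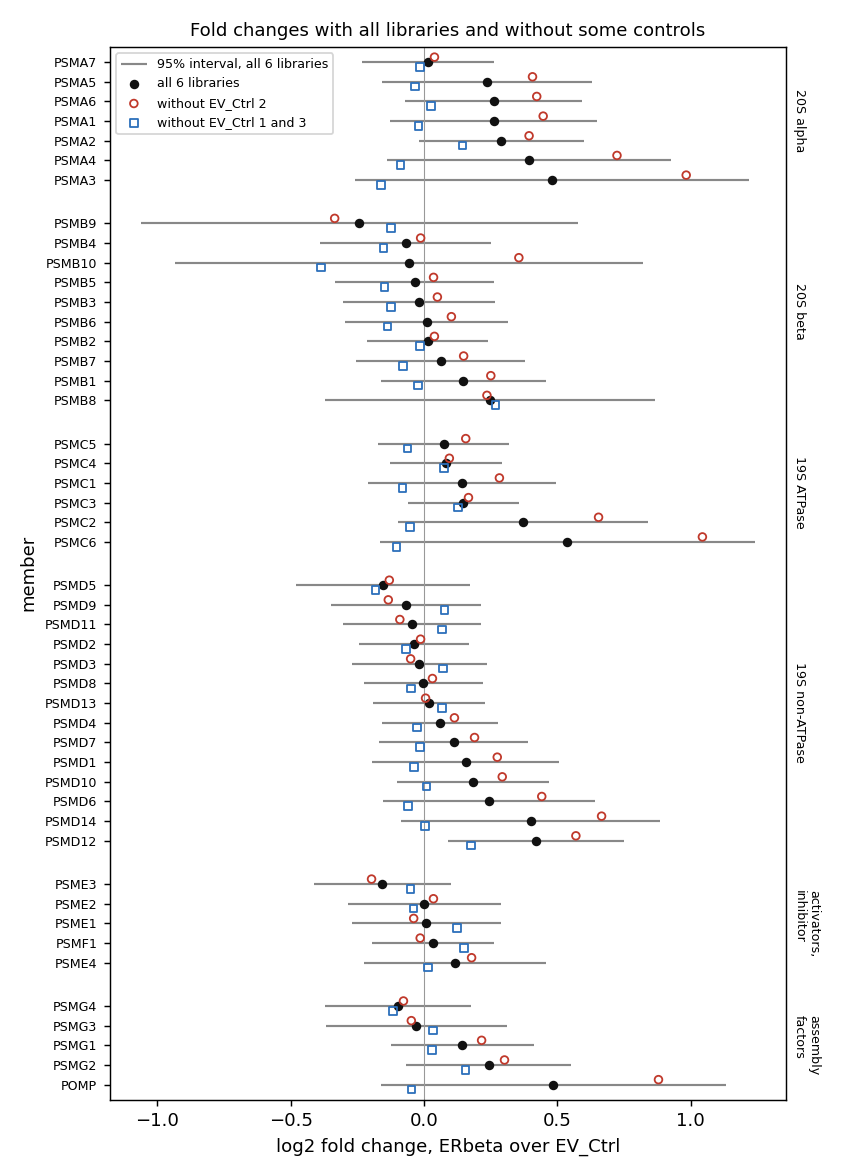
Log2 fold change of ERbeta over EV_Ctrl (x axis) for each tested gene, by class, with all 6 libraries (filled points, lines for the 95% interval), without EV_Ctrl 2 (open circles) and without EV_Ctrl 1 and 3 (open squares). For POMP, PSMA3 and PSMC6 the open circles lie at 0.88 to 1.04 and the open squares at -0.16 to -0.05.

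Fold changes of the members followed the GC content of their transcripts. Across the 47 members, Pearson's r of log2 fold change and GC content of the longest transcript was -0.67 (Spearman's rho -0.61); genes are not independent replicates and share the same 6 libraries. Over 16091 tested genes with a GC value r was -0.55. At a limit of 42% GC, chosen after the values were seen, the 14 members below it had a median of 0.28 and the 33 at or above it 0.01, against 0.37 and -0.07 for all genes on the same sides. With a correction for GC content fitted per library over all genes, the members' median was 0.06 and r turned to 0.61. POMP then stood at -0.12, PSMD12 at -0.09, PSMD14 at -0.33, PSMC6 at 0.16 and PSMA3 at -0.01, and none passed. For the 14 members of low GC content the median was -0.14 after the correction, and for the other 33 it was 0.08. Whether the GC trend of the controls accounts for these fold changes was not tested.

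With the GC correction and without EV_Ctrl 2, edgeR's test called 1 of 47 members higher, against 6.41% of all genes, and 1 lower, against 3.87%. The first was PSMC6 (log2 fold change 0.40, adjusted p 0.0463) and the second PSMD5 (-0.54, adjusted p 0.0086). PSMD5, the 19S assembly chaperone, was the 1 member lower in this setting and had an adjusted p of 0.66 without EV_Ctrl 2 alone. PSMD12 stood at -0.16, the opposite direction from the fit without the correction.

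**Figure D4:**
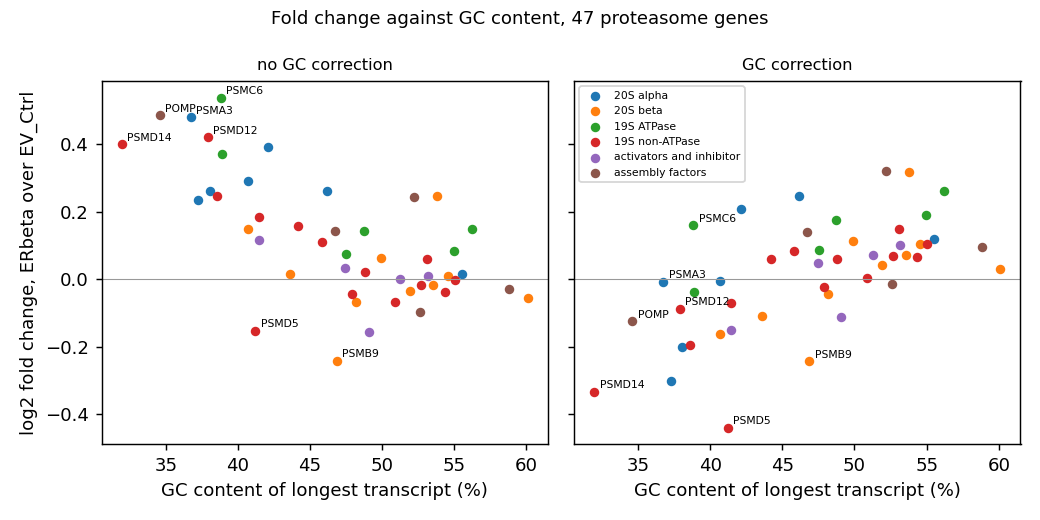
Log2 fold change of ERbeta over EV_Ctrl (y axis) against the GC content of the longest transcript in percent (x axis) for the 47 tested genes, without (left) and with (right) the GC correction; colours mark the classes. Pearson's r across genes is -0.67 on the left and 0.61 on the right.

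Genes around the proteasome gave no call with all 6 libraries. Of 24 listed partners and regulators, all tested, 0 passed in either direction. The median was 0.09, and 15 were positive, against 48.3% of all genes. Groups did not overlap for 5 that were higher in ERbeta, against 10.2% of all genes, NFE2L2, NGLY1 and TXNL1 among them. They did not overlap for 1 that was lower, against 8.48%. Without EV_Ctrl 2, edgeR's test called 4 of the 24 higher, against 13.5% of all genes, and 0 lower, against 0.775%. The 4 were UCHL5 (1.12), NFE2L2 (1.05), SEM1 (0.67) and NGLY1 (0.57), with adjusted p-values of 0.000157 to 0.0254. Of these, UCHL5 was named after its values were seen, and it stood at 0.07 with the GC correction. With that correction and without EV_Ctrl 2, edgeR's test called NFE2L2 higher (1.00, adjusted p 5.92e-05), against 6.41% of all genes. UCHL5 (0.22), SEM1 (-0.34) and NGLY1 (-0.28) were then not called. USP14 (-0.67, adjusted p 0.00377) and UBQLN1 (-0.61, adjusted p 0.00205) were called lower, against 3.87% of all genes. Before the correction neither was lower. USP14 stood at 0.02 with all 6 libraries and 0.03 without EV_Ctrl 2, and UBQLN1 at 0.16 and 0.20. UBQLN1 was named after its values were seen. NFE2L1, the factor of the bounce-back response, was at 347, 330 and 332 CPM in ERbeta and 359, 340 and 356 CPM in EV_Ctrl, a log2 fold change of -0.07 ± 0.09. DDI2, the protease that activates NFE2L1, was at 85.3 to 110 against 99.9 to 110 CPM (-0.07 ± 0.12). NGLY1, the glycanase that acts on it, was at 36.8 to 39.9 against 25.4 to 36.1 CPM without overlap (0.38 ± 0.15, adjusted p 0.397), and at -0.19 with the GC correction.

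NFE2L2 (NRF2), a relative of NFE2L1 that also binds the antioxidant response element, had the smallest p of the list. It was at 94.6, 92.6 and 94.9 CPM in ERbeta and 47.4, 79.7 and 43.8 CPM in EV_Ctrl. The groups did not overlap, the log2 fold change was 0.72 ± 0.22 with an adjusted p of 0.397, and it stood at 1.05 without EV_Ctrl 2, at 0.24 without EV_Ctrl 1 and 3 and at 0.68 with the GC correction. TXNL1, a thioredoxin-like protein bound to 19S, was at 121 to 127 against 93.1 to 106 CPM (0.30 ± 0.10, adjusted p 0.397) and at -0.20 with the correction.

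The ubiquitin gene UBB and the 19S partners USP14, ADRM1 and SEM1 each overlapped between groups. UBB was at 952 to 1057 CPM in ERbeta and 780 to 1007 CPM in EV_Ctrl (0.12 ± 0.12). The deubiquitinase gene USP14 was at 195 to 212 against 201 to 206 CPM (0.02 ± 0.09). ADRM1, a ubiquitin receptor, was at 139 to 160 against 137 to 158 CPM (0.05 ± 0.11). SEM1, a small lid subunit, was at 95.5 to 124 CPM in ERbeta and 78.3, 124 and 55.5 CPM in EV_Ctrl (0.29 ± 0.27), the same order of controls as POMP.

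The counting may touch some levels. PSMA1, PSMA2, PSMA6, PSMB10 and PSMD9 share 24.7%, 14.6%, 14.1%, 34.8% and 19.9% of their exon bases with another annotated gene on the same strand, and reads that fit both may be dropped or split. Per kb of the longest transcript, PSMA2 and PSMA6 were at 4.19 and 5.41 CPM in ERbeta, against 35.0 to 205 CPM for the other tested α subunits, but per kb of the principal transcript they were at 12.0 and 24.9 CPM, against 35.0 to 210 CPM. On the opposite strand, 75.8% of the exon bases of PSMC1 overlap NRDE2, and PSMB8 overlaps PSMB9 and PSMB8-AS1. Sources used here do not give the strand setting of the counting, so these levels are uncertain. Positions of the genes with the largest changes are, in GENCODE 29 on GRCh38, 67337916 to 67366627 on the minus strand of chromosome 17 for PSMD12, 52707172 to 52728587 on the plus strand of chromosome 14 for PSMC6, 58244831 to 58272012 on the plus strand of chromosome 14 for PSMA3 and 28659104 to 28678925 on the plus strand of chromosome 13 for POMP. GENCODE 29 lists all 4 as protein-coding.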

How the data were processed

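RNA of 6 HEK293T libraries was prepared with a stranded mRNA kit, per the labels' protocols. TopHat2, featureCounts and DESeq2 were used with hg38, per the submitters' processing notes; their versions, the annotation and the strand setting: not given in the sources used here. The authors deposited raw read counts per gene. Per the file headers, the authors' own comparison gives a mean signal after size factors, log2 fold changes, standard errors and statistics as scores, and p-values; it was only set beside the values computed here, and it may rest on more libraries than these 6.

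Members, lists, named genes and alternatives were chosen with earlier results of these data known. Genes were filtered with filterByExpr (minimum count 10, minimum total 15), scaled by TMM and tested with edgeR 4.0.16 in R 4.3.3 (limma 3.58.1 and DESeq2 1.42.0 for alternatives), with group as the only term, an adjusted p threshold of 0.05 and a biological coefficient of variation of 17.5%. Standard errors come from the quasi-likelihood F statistic and 95% intervals from its degrees of freedom. CPM are reads scaled to library size and TMM factor. Symbols were found for 56105 of 64299 identifiers. Fold changes were named for the 2 members of each of 6 classes with the smallest p, the lowest of 20S and of 19S, 15 fixed members, and partner genes, of which some are not reported here; PSMA3, PSMA4 and PSMC3 were added after their values were seen. GC content was corrected with a loess curve (span 0.5) per library as an offset. Detection floors cover counting error only. Within groups no libraries agreed within counting noise (chi-square per degree of freedom 4.99 to 37.6). Same-numbered libraries showed no sign of pairing, though 3 libraries a group cannot exclude it. The steps were also tested on simulated counts, which spread less among replicates than these libraries did.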

Additional observations from a re-analysis of the deposited data

How the results depend on the processing

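The number of genes passing was 0 with DESeq2 size factors or library size only, 51 without a filter on low counts, 71 with DESeq2's test, 1 with limma-voom, 9 with the GC correction and 1657 with that correction and without EV_Ctrl 2. Leaving out 1 library at a time gave 0 to 2324 genes, with the highest number without EV_Ctrl 2. Members passing were 0 in each of these settings except without EV_Ctrl 2, where there were 7 (range over the left-out libraries 0 to 7), and with the GC correction and without EV_Ctrl 2, where there were 2; the cause was not tested. The deviations of same-numbered libraries correlated at 0.23, -0.14 and -0.15, and those of unlike-numbered libraries at -0.37 to 0.36. This gave no sign of pairing, but with 3 libraries a group it cannot exclude it. With the replicate number as a block, 0 genes and 0 members passed, the 20S and 19S medians were 0.07 and 0.10, and no named gene changed direction. The GC correction together with the block also gave 0 and 0.

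Over left-out libraries the median log2 fold change was 0.032 to 0.24 for 20S (highest without EV_Ctrl 2, 0.24), 0.019 to 0.16 for 19S, -0.068 to 0.048 for activators and inhibitor and 0.057 to 0.22 for assembly factors. With library size only the medians were -0.030 for 20S, 0.0026 for 19S and -0.089 for activators, and without EV_Ctrl 1 and 3 they were -0.078 for 20S and -0.020 for 19S. With the principal transcript's length, chosen after seeing the data, the median folds per kb were 120 for PSMB5 over PSMB8 and 85.2 for PSMB6 over PSMB9.

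Log2 fold changes of named genes took the other sign in these settings, and the cause was not tested. PSME2 stood at -0.0059 with DESeq2 size factors and at -0.0050 with DESeq2's test. With library size only the values were PSMB6 -0.080, PSMB7 -0.030, PSME1 -0.089, PSME2 -0.091, PSMF1 -0.066, USP14 -0.075 and ADRM1 -0.046. With the GC correction they were PSMA2 -0.0042, PSMA6 -0.20, PSMB1 -0.16, PSMC2 -0.038, PSMD12 -0.087, PSMD14 -0.33, PSME4 -0.15, POMP -0.12, PSMB5 0.041, PSMB10 0.029, PSMA3 -0.0085, NFE2L1 0.043, NGLY1 -0.19, USP14 -0.49, SEM1 -0.40 and TXNL1 -0.20. With that correction and the replicate block they were PSMA2 -0.012, PSMA6 -0.21, PSMB1 -0.16, PSMC2 -0.034, PSMD12 -0.084, PSMD14 -0.32, PSME4 -0.15, POMP -0.10, PSMB5 0.050, PSMB10 0.0063, NFE2L1 0.041, NGLY1 -0.20, USP14 -0.48, SEM1 -0.40 and TXNL1 -0.19. With that correction and without EV_Ctrl 2 they were PSMA2 -0.056, PSMA6 -0.28, PSMB1 -0.20, PSMD12 -0.16, PSMD14 -0.35, PSME4 -0.20, POMP -0.054, PSMB5 0.14, PSMB10 0.51, NFE2L1 0.057, NGLY1 -0.28, USP14 -0.67, SEM1 -0.34 and TXNL1 -0.36. Without EV_Ctrl 1 and 3 they were PSMB1 -0.022, PSMC2 -0.051, PSMC6 -0.10, POMP -0.047, PSMB6 -0.14, PSMB7 -0.078, PSME2 -0.039, PSMD11 0.068, PSMA3 -0.16, PSMA4 -0.088 and SEM1 -0.23. Genes whose sign turned with a left-out library ranged as follows: USP14 -0.0034 to 0.056, ADRM1 -0.0043 to 0.11, PSMB6 -0.087 to 0.10, PSMB7 -0.044 to 0.15, PSMB10 -0.47 to 0.36, PSME1 -0.077 to 0.062, PSME2 -0.069 to 0.051, PSMD11 -0.12 to 0.038, DDI2 -0.15 to 0.035, PSME4 -0.041 to 0.20, PSMB5 -0.14 to 0.036, PSMF1 -0.014 to 0.070, PSMB9 -0.44 to 0.079. Depth limits PSMB8, PSMB9 and PSMB10 most, with 5 to 45 reads a library.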
